A study of Mus musculus with 8 samples.

Results

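The comparison set the 4 arrays of the second of 2 culture experiments (Exp2) against the 4 arrays of the first (Exp1), which together are all 8 arrays of the study; the sample titles name the experiment. RNA came from neurosphere cells of mouse forebrains taken at embryonic day 14.5. All embryos carried a bcl2 transgene, whose promoter and strain the labels do not name, so every group shares it. Cells were seeded as a single-cell suspension and kept for 2 days in 1 of 4 conditions. In each experiment the groups were an untreated culture, a culture with 500 nM AzaC (5-aza-2'-deoxycytidine, which blocks DNA methyltransferases), one with 150 nM TSA (trichostatin A, which blocks histone deacetylases) and one with both at those doses (AzaC/TSA). Each experiment held 1 array of each condition, so the arrays could be compared in 4 matched pairs. The labels call the experiments independent and say that forebrains were isolated individually, but not how many embryos stood behind each experiment.

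Neurospheres are floating clusters that neural stem and progenitor cells form in culture with growth factors, and they hold stem cells beside cells on their way to neurons, astrocytes and oligodendrocytes. Under low oxygen the transcription factor HIF-1 is stabilised and raises genes of glucose uptake, glycolysis and survival. Class I molecules of the major histocompatibility complex (MHC) carry peptides to the cell surface together with beta-2-microglobulin, and neural progenitors usually make little of them.

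An Exp2 array had a median signal of 59.2 to 67.6 and an Exp1 array one of 63.7 to 72.7, after the authors' scaling to a common level. The share of probe sets with a signal of at least 50 was 53.1% to 56.2% in Exp2 and 54.9% to 58.3% in Exp1. The actin controls gave a 5' to 3' ratio, a sign of RNA integrity, of 0.332 to 0.398 in Exp2 and 0.29 to 0.471 in Exp1. In Exp1 it was 0.427 in untreated and 0.471 in AzaC cells, but 0.33 with TSA and 0.29 with AzaC/TSA. Exp2 had no such drop with TSA (0.378 and 0.39). The ratio of the GAPDH controls was 0.808 to 0.993 in Exp2 and 0.738 to 1.043 in Exp1. Nes, the intermediate filament protein nestin that marks neural progenitors, was bright in all cultures, with signals of 2053, 3003, 1949.6 and 2921 in Exp2, against 2376, 2259, 1049 and 2008 in Exp1 for untreated, AzaC, TSA and AzaC/TSA cells; this order of treatments holds wherever 4 values are given. Ptprc, which encodes the blood cell marker CD45, stayed below a signal of 20 on all 8 arrays. That value is a floor to which lower signals were raised before the log2 transformation, and a fold change whose dimmer group had an array under it is given as a lower bound ("at least").

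limma called 337 of 7987 tested probe sets (4.22%) at an adjusted p below 0.05, 126 of them higher (1.58%) and 211 lower (2.64%) in Exp2. They represented 265 of 6011 named genes tested (4.41%), 94 of them higher (1.56%) and 171 lower (2.84%). Called probe sets that rose had a median log2 change of 0.95 and those that fell one of -1.38, 203 exceeded 2-fold, and 334 had the same sign in all 4 pairs. For 212 of the 337 no array of one experiment fell within the range of the other, and such separation was found for 632 of the 7987 probe sets in all (7.91%). Each p-value rests on 4 matched pairs and measures how even a difference was over the 4 treatments. A shared sign in all 4 pairs is thus nearly required for a call and is no separate evidence for it. The arrays of an experiment share that experiment and are not replicates of it, and embryos, culture, RNA preparation and array handling cannot be told apart as sources of a difference. The count fell to 77 without the TSA pair, 91 without the AzaC pair and 94 without the AzaC/TSA pair, and it was 239 without the untreated pair. Across all tested probe sets the experiment accounted for 20% of the variation in log2 signal, the treatment for 57.8% and the rest for 22.2%. Treatment had 4 levels and experiment 2, so their shares do not compare on equal terms.

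The genes described first are the 15 largest rises and 15 largest falls among called genes with a single symbol that went the same way in all 4 pairs. This left out Lgals9, a galectin with a called rise of at least 2.59 on the log2 scale, because its untreated pair was below the floor in both experiments. The largest rise was that of Anxa1, which encodes annexin A1, a calcium-dependent phospholipid-binding protein. Its signals were 233, 918, 1115 and 2584 in Exp2, against 24.2, 7.7, 82.4 and 84.7 in Exp1. Every Exp2 array lay above every Exp1 array, and the gene was at least 20.7-fold higher in Exp2 (log2 change 4.37, SE 0.34, limma adjusted p = 0.00037). Its other 2 probe sets rose too, with log2 changes of 2.78 and 4.21. All of these are of the family kind by name or hold incomplete sets of probes, and such probe sets can cross-hybridise with related genes. Skap2, an adaptor protein of Src-kinase signalling, had signals of 1018, 849, 930.2 and 663 in Exp2, against 140.2, 161, 292 and 244 in Exp1. No arrays overlapped, and Skap2 was 4.27-fold higher in Exp2 (log2 change 2.10, SE 0.24, limma adjusted p = 0.00248). Kdelr3, a receptor that returns proteins to the endoplasmic reticulum, gave 218, 377, 458 and 653 in Exp2, against 69.7, 62.3, 172 and 179 in Exp1, and was 3.68-fold higher in Exp2 (log2 change 1.88, SE 0.23, limma adjusted p = 0.00376). Ifi27, which encodes an interferon-inducible protein of mitochondria, had 428, 436, 1192 and 1169.8 in Exp2, against 171, 134, 314 and 324 in Exp1. In both experiments the TSA-treated cultures were the brightest for it, and Ifi27 was 3.25-fold higher in Exp2 (log2 change 1.70, SE 0.17, limma adjusted p = 0.00137). Hmga2, a chromatin protein of fetal stem cells, gave 72.9, 161, 271 and 228 in Exp2, against 50, 45.4, 44.4 and 34.1 in Exp1. It was 3.81-fold higher in Exp2 (log2 change 1.93, SE 0.38, limma adjusted p = 0.0235), with the smallest difference between the untreated cultures.

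These 15 rises further held H2-K2 (log2 change 2.5), Rhox5 (at least 1.98), Hoxa5 (at least 1.94), Aldoc (1.94), Nkain1 (1.80), Glipr2 (1.79), H2-D1 (1.74), Hk2 (1.61), Nptx1 (1.59) and Ero1a (1.53). Rhox5 is a homeobox gene of the X chromosome that is kept silent in most tissues by DNA methylation, and its signals were 147, 154, 221 and 234 in Exp2, against 55.1, 52.8, 83.9 and 10.8 in Exp1. Each of the 4 pairs was higher in Exp2, and the AzaC/TSA pair differed most. Hoxa5, a homeobox gene that patterns the hindbrain and trunk rather than the forebrain, had 115, 156, 84.9 and 134 in Exp2, against 32.8, 56.3, 25.6 and 19.5 in Exp1. Its arrays did not overlap, though all stayed dim, and 11 Hox genes were tested, of which Hoxa5 alone passed. Anxa1, Skap2, Kdelr3, Ifi27, Nkain1, Aldoc and Hk2 passed the test without each pair in turn. Hmga2, Rhox5, Hoxa5 and Nptx1 did not pass without the AzaC, the TSA or the AzaC/TSA pair, nor did Glipr2 without the AzaC or the AzaC/TSA pair.

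**Figure D1:**
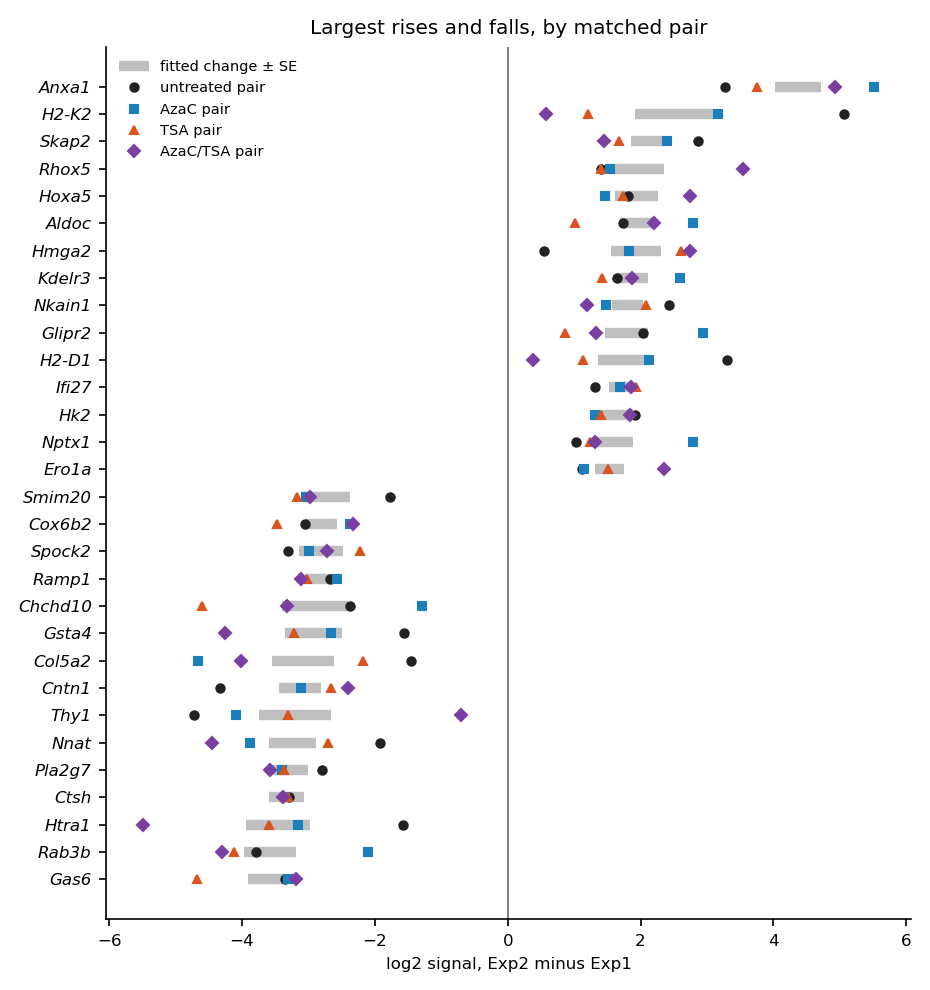
Log2 signal of Exp2 minus Exp1 (horizontal axis) for the 15 largest rises and 15 largest falls among named genes past the test with the same sign in all 4 pairs, 1 gene per line, with a marker for each matched pair and a grey bar for the fitted change ± SE. Anxa1 lies furthest right at 4.37 and Gas6 furthest left at -3.63.

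Among the largest falls, Gas6, a secreted ligand of the TAM receptor kinases, had signals of 7.3, 10.2, 70.6 and 152 in Exp2, against 204, 198, 1809 and 1386 in Exp1. It was much brighter with TSA in both experiments and at least 12.4-fold lower in Exp2 (log2 change -3.63, SE 0.28, limma adjusted p = 0.00037). Rab3b, a small GTPase of secretory vesicles, gave 6.3, 6.3, 15 and 12.1 in Exp2, against 276, 86.3, 347 and 395 in Exp1, so all Exp2 values lay under the floor. It was at least 11.9-fold lower in Exp2 (log2 change -3.58, SE 0.39, limma adjusted p = 0.00192). Htra1, a secreted serine protease, had 74.6, 18.1, 180.4 and 51.4 in Exp2, against 224, 179, 2178 and 2317 in Exp1. The groups overlapped only through the brighter TSA-treated Exp2 culture and the AzaC-treated Exp1 culture, and Htra1 was at least 11-fold lower in Exp2 (log2 change -3.46, SE 0.48, limma adjusted p = 0.00466). Ctsh, the lysosomal protease cathepsin H, gave 33.4, 24.4, 9.8 and 7.7 in Exp2, against 328, 249, 197 and 209 in Exp1, and was at least 10.1-fold lower in Exp2 (log2 change -3.33, SE 0.26, limma adjusted p = 0.00037). Nnat, neuronatin, an imprinted gene of neural tissue, had 325, 80.1, 194 and 57.9 in Exp2, against 1228, 1182, 1259 and 1265 in Exp1. Its Exp2 signals spread widely, all below the nearly equal Exp1 signals, and Nnat was 9.43-fold lower in Exp2 (log2 change -3.24, SE 0.35, limma adjusted p = 0.00192). Ramp1, a partner of the calcitonin-like receptor, gave 58, 73.5, 34.7 and 58.2 in Exp2, against 369, 436, 281 and 502 in Exp1. These arrays did not overlap, and Ramp1 was 7.17-fold lower in Exp2 (log2 change -2.84, SE 0.22, limma adjusted p = 0.00037).

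The rest of these 15 falls were Pla2g7 (at least -3.29 on the log2 scale), Thy1 (at least -3.21), Cntn1 (-3.13), Col5a2 (-3.08), Gsta4 (at least -2.92), Chchd10 (at least -2.90), Spock2 (at least -2.81), Cox6b2 (-2.81) and Smim20 (at least -2.74). Cntn1, contactin 1, a cell adhesion molecule of axons and oligodendrocyte precursors, had 22.1, 59.4, 53.9 and 84.1 in Exp2, against 443, 516, 341 and 444 in Exp1. Spock2, a proteoglycan of brain extracellular matrix, gave 6.9, 10.1, 9.6 and 10.9 in Exp2, against 199, 159, 93.2 and 133 in Exp1. For both, every Exp2 array was below every Exp1 array. Of the 15, Gas6, Rab3b, Ctsh, Pla2g7, Nnat, Cntn1, Col5a2, Ramp1, Spock2, Cox6b2 and Smim20 passed without each pair in turn. Without the TSA pair Htra1, Gsta4, Chchd10 and Thy1 did not pass, and Chchd10 and Thy1 each failed without 1 other pair, AzaC/TSA for Chchd10 and AzaC for Thy1.

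Of 18 glycolysis genes tested, 2 rose in Exp2 and 1 fell (1.56% and 2.84% of all 6011 genes did), and 14 had a log2 change above 0. Their median log2 change was 0.43, against 0.01 over all genes, and the median was above 0 in each matched pair. Hk2, the hexokinase that commits glucose to glycolysis in growing cells, had signals of 399, 431, 145 and 213 in Exp2, against 106, 173, 54.9 and 59.7 in Exp1. Each Exp2 culture was above its Exp1 partner, although the experiments overlapped, and Hk2 was 3.06-fold higher in Exp2 (log2 change 1.61, SE 0.22, limma adjusted p = 0.00439). Aldoc, the brain aldolase, which is also a marker of astrocytes, gave 1248, 3451, 498 and 999.6 in Exp2, against 373, 497, 247 and 218 in Exp1. It was 3.83-fold higher in Exp2 (log2 change 1.94, SE 0.25, limma adjusted p = 0.00426). Ldhb, the lactate dehydrogenase subunit that favours pyruvate, moved the other way, with 640.0, 351, 359 and 311 in Exp2, against 1373, 974, 1011 and 764 in Exp1. No array overlapped, and Ldhb was 2.53-fold lower in Exp2 (log2 change -1.34, SE 0.15, limma adjusted p = 0.00236). Hk2, Aldoc and Ldhb all passed without each pair.

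Other steps of the pathway lay above 0 without passing on their brightest probe set. Aldoa, the ubiquitous aldolase, had a log2 change of 0.75 (adjusted p = 0.0683 in limma), while a dimmer probe set of it passed at 0.83 (adjusted p = 0.0248). Hexokinase 1 (Hk1) gave 0.62, triose phosphate isomerase (Tpi1) 0.45, phosphoglycerate kinase (Pgk1) 0.45 and the glucose transporter Slc2a1 0.77. Ldha, the subunit that favours lactate, had signals of 6464, 6371, 2549 and 2309 in Exp2, against 5551, 6217, 1204 and 1729.6 in Exp1. Its difference was larger with TSA than without, and the fitted log2 change was 0.44 (adjusted p = 0.192).

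In the hypoxia list 3 of 23 genes rose and 0 fell, beside 1.56% and 2.84% of all 6011 genes. Of the 23, 18 lay above 0, and the median log2 change was 0.34. All 3 that rose are textbook HIF-1 targets. Ero1a, the oxidase that forms disulfide bonds in the endoplasmic reticulum, had signals of 829, 1109, 1314 and 1817 in Exp2, against 382, 501, 463 and 354 in Exp1. Every Exp2 array was above every Exp1 array; Ero1a was 2.89-fold higher in Exp2 (log2 change 1.53, SE 0.21, limma adjusted p = 0.00466), and its other probe set agreed in direction with a change of 1.61. Pdk1, a kinase that inhibits pyruvate dehydrogenase in mitochondria, gave 515, 475, 372 and 358 in Exp2, against 104, 119.8, 224 and 173 in Exp1. Its arrays did not overlap, and Pdk1 was 2.87-fold higher in Exp2 (log2 change 1.52, SE 0.27, limma adjusted p = 0.0167). Bhlhe40, a basic helix-loop-helix repressor, had 398, 401, 385 and 417 in Exp2, against 155, 195, 227 and 209 in Exp1. The Exp2 values were almost equal across treatments, and Bhlhe40 was 2.06-fold higher in Exp2 (log2 change 1.04, SE 0.18, limma adjusted p = 0.0156). Vegfa, the vascular growth factor that HIF-1 induces, had 145, 165, 63.1 and 67.3 in Exp2, against 75.7, 141, 30.8 and 10.5 in Exp1, and its log2 change of 0.99 did not pass (adjusted p = 0.118). Neither did Hif1a itself (0.31) nor Kdm3a (0.65), and Cited2 (-0.97), Adm (-0.92) and Epas1 (-0.85) lay below 0 without passing. Ero1a did not pass without the TSA pair (adjusted p = 0.0508), Pdk1 not without the AzaC pair (0.098), and Bhlhe40 not without the AzaC, the TSA or the AzaC/TSA pair (up to 0.0772).

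The promoters of Ero1a and Hk2 show where letters that HIF-1 can recognise stand. The 250 bases before the RefSeq start of each gene are given 5′ to 3′ on the gene's own strand in build GRCm38.p6, with matches to ACGTG or GCGTG on either strand in capitals. Ero1a lies at chr14:45318573-45318822 on the minus strand and holds 3 matches, and Hk2 lies at chr6:82774455-82774704 on the minus strand and holds 2, which read CACGT because they are on the opposite strand.
Ero1a: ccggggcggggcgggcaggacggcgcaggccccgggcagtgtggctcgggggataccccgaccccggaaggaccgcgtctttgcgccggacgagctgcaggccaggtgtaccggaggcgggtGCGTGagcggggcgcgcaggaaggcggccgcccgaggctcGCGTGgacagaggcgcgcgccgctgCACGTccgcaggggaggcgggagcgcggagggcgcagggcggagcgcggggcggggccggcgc
Hk2: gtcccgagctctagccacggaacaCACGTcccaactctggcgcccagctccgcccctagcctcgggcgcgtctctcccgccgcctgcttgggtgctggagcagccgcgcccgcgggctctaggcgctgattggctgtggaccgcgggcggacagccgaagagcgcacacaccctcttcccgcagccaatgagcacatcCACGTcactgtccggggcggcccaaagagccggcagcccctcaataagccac
At least 1 such match occurs in 38.6% of 32851 RefSeq promoter windows of the same length, so a match is a description of these letters only.

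Oxidative phosphorylation, the mitochondrial use of oxygen, had 0 of 27 genes higher and 2 lower in Exp2, beside 1.56% and 2.84% of all 6011 genes. Its median log2 change was -0.17. Sdhb, the iron-sulfur subunit of succinate dehydrogenase, gave 1518, 1312, 1042 and 979 in Exp2, against 2409.5, 2327, 1466 and 1403 in Exp1 (log2 change -0.63, adjusted p = 0.0336 in limma). Uqcrc2, a core subunit of complex III, had 2167, 2019, 1513 and 1251 in Exp2, against 2993, 2862, 2205 and 2804 in Exp1 (log2 change -0.67, adjusted p = 0.0433). Both calls were lost when any 1 of the 4 pairs was left out (adjusted p up to 0.182). Cox6a1 (-0.50), Ndufa2 (-0.47) and Ndufb5 (-0.47) lay below 0 without passing, and Cox5b (0.55) and Sdhc (0.40) above it. The median was -0.25 and -0.39 in the untreated and AzaC pairs and 0.01 in both pairs with TSA.

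**Figure D2:**
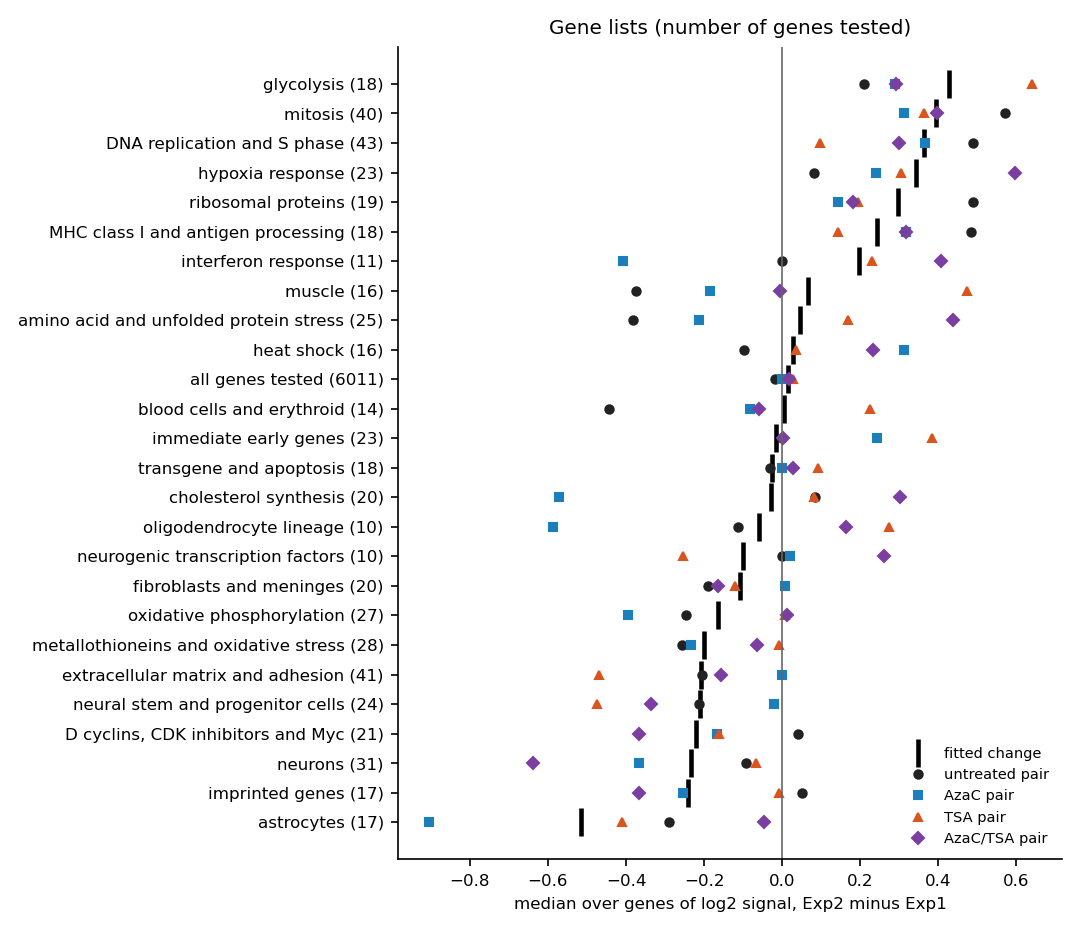
Median log2 signal of Exp2 minus Exp1 (horizontal axis) over the tested genes of each list, with a black tick for the fitted change and a marker for each matched pair; lists of at least 10 genes are drawn, with all genes for reference. Glycolysis (0.43), mitosis (0.40), DNA replication (0.36) and hypoxia (0.34) stand at the top and astrocytes (-0.52) at the bottom, against 0.01 for all genes.

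In antigen presentation the calls were class I genes. Of 18 genes for class I molecules and their peptide supply 3 rose in Exp2 and 0 fell, beside 1.56% and 2.84% of all 6011 genes. Of the 18, 15 lay above 0, and the median log2 change was 0.24. B2m, beta-2-microglobulin, the invariant light chain of class I molecules, had signals of 4732, 2965, 5103 and 4646 in Exp2, against 1083, 850.2, 2402 and 2997 in Exp1. Only the AzaC-treated Exp2 culture lay within the Exp1 range, and B2m was 2.66-fold higher in Exp2 (log2 change 1.41, SE 0.22, limma adjusted p = 0.0105). H2-D1, a classical class I heavy chain, gave 1062, 633, 2584 and 1480.0 in Exp2, against 107, 145, 1179 and 1142 in Exp1. The lowest values were those of Exp1 without TSA, and H2-D1 was 3.33-fold higher in Exp2 (log2 change 1.74, SE 0.38, limma adjusted p = 0.0368). Tap1, a subunit of the peptide transporter that loads class I molecules, had 226, 289, 148 and 198 in Exp2, against 71.4, 88, 98.1 and 118 in Exp1. Its arrays did not overlap, and Tap1 was 2.26-fold higher in Exp2 (log2 change 1.18, SE 0.27, limma adjusted p = 0.0396).

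Over the 18 genes the median matched log2 difference was 0.48 and 0.32 in the untreated and AzaC pairs, and 0.14 and 0.32 in the TSA and AzaC/TSA pairs. H2-D1, B2m and H2-K2 differed more in the pairs without TSA, but the test of that dependence on TSA did not pass for any of these 3. In H2-D1 the matched log2 differences were 3.31 and 2.13 in the untreated and AzaC pairs, and 1.13 and 0.37 in the TSA and AzaC/TSA pairs (adjusted p = 0.294 for the dependence in limma). The other 2 probe sets of H2-D1 lay above 0 without passing (adjusted p = 0.107 and 0.159 for the difference between experiments). B2m gave 2.13 and 1.80 without TSA and 1.09 and 0.63 with it (adjusted p = 0.302). H2-K2, a heavy chain gene outside the list, had 753, 291, 2062 and 1328 in Exp2, against 22.6, 32.5, 889 and 893 in Exp1 and was 5.66-fold higher in Exp2 (log2 change 2.5, SE 0.59, limma adjusted p = 0.046). Its dependence on TSA had an adjusted p of 0.195. H2-K1, the other classical heavy chain, had 441, 338, 1092 and 677 in Exp2, against 180.4, 293, 785 and 846 in Exp1 on its brightest probe set, where only the AzaC/TSA pair was lower in Exp2. Its log2 change of 0.41 did not pass, nor did 1.42 on a second probe set (adjusted p = 0.0536). The H2-D1 and H2-K2 probe sets and the 2 brighter ones of H2-K1 are of the family kind and may share target RNA. H2-M3, a nonclassical heavy chain, ran the other way, with matched log2 differences of -1.21 and -1.75 in the untreated and AzaC pairs and 0.12 and 0.26 in the TSA and AzaC/TSA pairs, and did not pass (adjusted p = 0.352). Psmb9, a subunit of the immunoproteasome, gave 115, 72.8, 32.4 and 101 in Exp2, against 5.3, 15.1, 14.8 and 32.1 in Exp1 and just missed the threshold (1.68, adjusted p = 0.0502).

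Of 11 genes in the list of the interferon response 0 rose and 1 fell, beside 1.56% and 2.84% of all 6011 genes. Ifi27, described above and also interferon-inducible, is not in that list and rose. The gene that fell was Ly6e, a membrane protein, with 115, 99.6, 319.9 and 354 in Exp2, against 300.1, 428, 1155 and 1026 in Exp1 (log2 change -1.72, SE 0.18, limma adjusted p = 0.00192). Of 4 class II genes 0 passed in either direction. The call of Tap1 was lost when any 1 pair was left out (up to 0.183), that of B2m without the AzaC or the TSA pair (up to 0.0733), and those of H2-D1 and H2-K2 without the untreated, the AzaC or the TSA pair (up to 0.165 and 0.197).

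**Figure D3:**
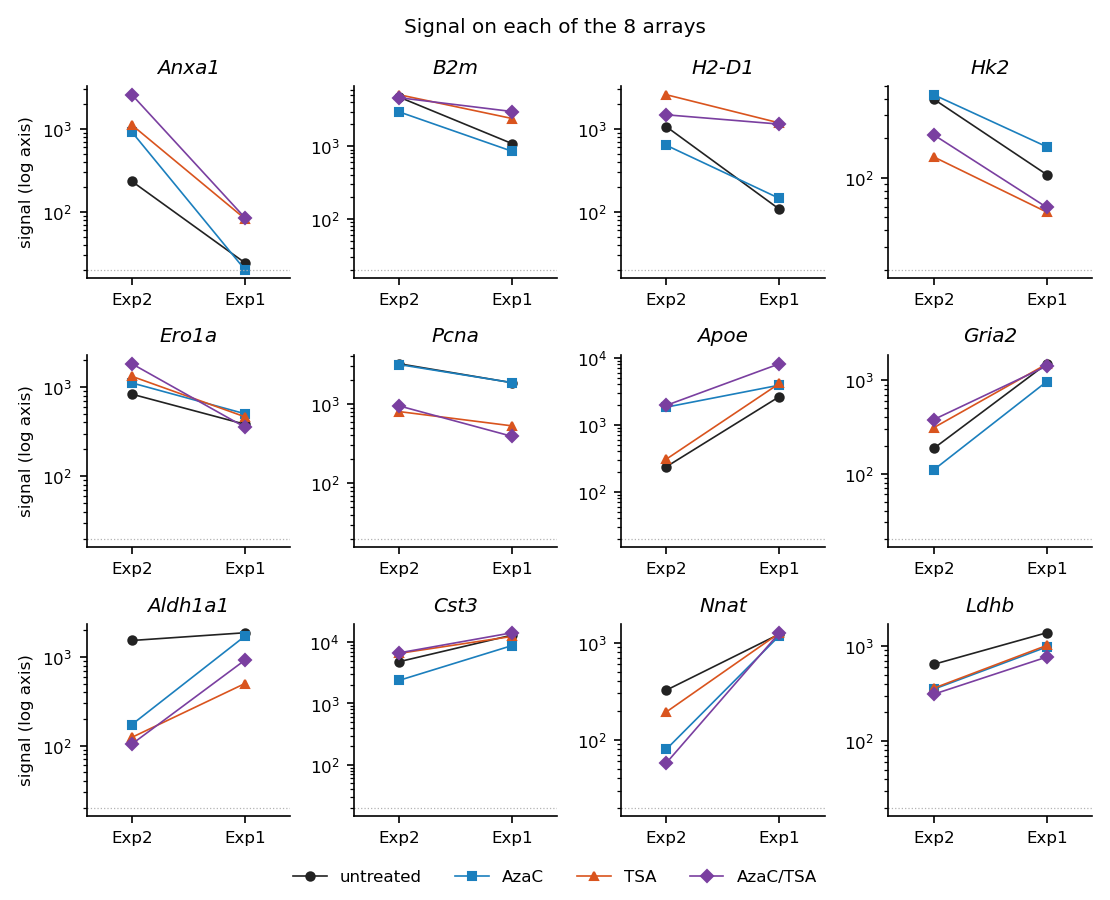
Signal (log axis) in Exp2 and Exp1 for 12 genes, with a line for each matched pair of cultures and a dotted line at the floor of 20. Anxa1, B2m, H2-D1, Hk2, Ero1a and Pcna slope down from Exp2 to Exp1, and Apoe, Gria2, Aldh1a1, Cst3, Nnat and Ldhb slope up.

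Of 31 neuronal genes 0 rose and 2 fell in Exp2, beside 1.56% and 2.84% of all 6011 genes. Of the 31, 9 lay above 0, and the median log2 change was -0.23. Gria2, the subunit that makes AMPA-type glutamate receptors impermeable to calcium, had signals of 186, 109.6, 311 and 379.6 in Exp2, against 1509.5, 972, 1499 and 1426 in Exp1. No Exp2 array reached the lowest Exp1 array; Gria2 was 6.01-fold lower in Exp2 (log2 change -2.59, SE 0.22, limma adjusted p = 0.00046), and both other probe sets fell with at least -2.29 and -1.90. Chgb, chromogranin B of secretory granules, gave 38.6, 51.6, 595 and 537 in Exp2, against 128, 91.4, 1627 and 1652 in Exp1. It was much brighter with TSA in both experiments, and each Exp2 culture was below its partner (log2 change -1.41, SE 0.21, limma adjusted p = 0.00627). The widely used neuronal markers did not pass. Tubb3, neuronal beta-tubulin, had 1959, 2376, 1057 and 834 in Exp2, against 1836, 1635, 1107 and 1486 in Exp1 and a log2 change of -0.07 (adjusted p = 0.893), while its dimmer probe set gave 1.33 without passing. Map2 (0.61), Dcx (-0.59), Snap25 (-0.57) and Stmn2 (-0.23) did not pass either. Of 10 neurogenic transcription factors 0 passed, and Sox4, in the list of such factors, lay at -1.07 (adjusted p = 0.0548). Gria2 passed without each pair, and Chgb failed without the TSA or the AzaC/TSA pair (adjusted p up to 0.0652).

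Astrocyte genes had the lowest median of the lists drawn, -0.52. Of 17 tested, 1 was higher and 5 lower in Exp2, beside 1.56% and 2.84% of all 6011 genes. In these bulk samples fewer cells of a type and less RNA per cell cannot be told apart. Apoe, the lipid carrier that astrocytes secrete, had signals of 237, 1831, 307 and 1949 in Exp2, against 2633, 3895, 4133 and 8116 in Exp1. The groups did not overlap, the 2 cultures with AzaC were the brightest of Exp2, and Apoe was 6.03-fold lower in Exp2 (log2 change -2.59, SE 0.37, limma adjusted p = 0.00507). Aldh1a1, a retinaldehyde dehydrogenase, gave 1534, 173, 124 and 104 in Exp2, against 1876, 1718, 502 and 922 in Exp1. The untreated cultures were close to each other and the 3 treated pairs far apart (log2 change -2.19, SE 0.41, limma adjusted p = 0.0209). Sparcl1, a matrix protein that astrocytes release at synapses, had 3838, 904, 225 and 162 in Exp2, against 3829, 3763, 810.3 and 1137 in Exp1. Here too the untreated cultures were alike, and Sparcl1 was 3.2-fold lower in Exp2 (log2 change -1.68, SE 0.36, limma adjusted p = 0.0334). Cpe, carboxypeptidase E (-0.83), and Id3, an inhibitor of differentiation (-1.09), also fell, and Aldoc was the gene that rose. Gfap, the defining filament of mature astrocytes, was dim throughout, with 16.9, 47.9, 53.2 and 46 in Exp2, against 43, 66.7, 42.9 and 54.6 in Exp1, and did not pass (-0.38). S100b (0.39), Clu (0.16), Glul (-0.20) and Gja1 (-0.52) did not pass. Without the TSA pair none of these 5 falls passed (adjusted p of 0.0504 for Id3 and 0.0513 for Apoe), and Aldh1a1, Sparcl1 and Cpe also failed without the AzaC or the AzaC/TSA pair.

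Of 24 markers of stem and progenitor cells tested, 0 rose and 3 fell in Exp2, beside 1.56% and 2.84% of all 6011 genes. Their median log2 change was -0.21. Ptn, the growth factor pleiotrophin, gave 297, 151, 16.1 and 54.4 in Exp2, against 574, 359, 174 and 328 in Exp1, and was at least 3.94-fold lower in Exp2 (log2 change -1.98, SE 0.35, limma adjusted p = 0.0165). Id4, a relative of Id3, had 22, 22.1, 46.2 and 27.7 in Exp2, against 54.5, 81.4, 117 and 119.7 in Exp1 (log2 change -1.66, SE 0.33, limma adjusted p = 0.0267), with no overlap between the experiments. Id3 had 904, 595, 530.1 and 678 in Exp2, against 1743, 1504, 1248 and 1199 in Exp1, also without overlap (log2 change -1.09, SE 0.15, limma adjusted p = 0.00462). Nes (0.41), Sox2 (-0.32), Fabp7 (-0.57), Hes1 (-0.19) and Pax6 (0.58) did not pass. In the oligodendrocyte lineage 2 of 10 genes fell and 0 rose. Bcan, the proteoglycan brevican, had 2525, 1784, 368 and 701 in Exp2, against 3623, 3906, 659 and 1239.6 in Exp1 (log2 change -0.83, SE 0.14, limma adjusted p = 0.0156), and Gpm6b, a myelin proteolipid relative, had 1409, 669.6, 618 and 708 in Exp2, against 1496, 1316, 1561 and 1842 in Exp1 (log2 change -0.94, SE 0.21, limma adjusted p = 0.0396). In both genes the untreated pair differed least, and the experiments overlapped. Myelin basic protein, Mbp, was dim on all arrays and did not pass (0.09). Ptn failed without the TSA or the AzaC/TSA pair, and Id4, Bcan and Gpm6b without the AzaC, the TSA or the AzaC/TSA pair.

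Of 43 DNA replication and S phase genes 3 rose and 0 fell, beside 1.56% higher and 2.84% lower over all 6011 genes, 37 lay above 0, and the median log2 change was 0.36. Pcna, the sliding clamp of DNA polymerases, had signals of 3208, 3135, 800.3 and 944 in Exp2, against 1849, 1852, 528 and 389 in Exp1. It was dimmer with TSA in both experiments, and within each treatment Exp2 was the higher (log2 change 0.86, SE 0.15, limma adjusted p = 0.0166). Mcm3, a subunit of the replicative helicase, gave 704, 1032, 119 and 147 in Exp2, against 399, 569.5, 40.7 and 35.4 in Exp1 (log2 change 1.32, SE 0.24, limma adjusted p = 0.0196). Mcm2, another subunit, had 659.6, 1007, 163 and 224 in Exp2, against 422, 431, 111 and 99.5 in Exp1 (log2 change 0.90, SE 0.19, limma adjusted p = 0.0336). For these 3 genes the arrays overlapped, and the treatments spread the signals of each experiment more widely than the experiments differed. Mcm4 (0.72), Mcm5 (0.42), Chek1 (0.82) and Prim1 (0.85) lay above 0 and Mcm7 (-0.06) and E2f1 (-0.26) below it, none past the threshold.

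Among 40 mitosis genes 2 rose and 0 fell, beside 1.56% and 2.84% of all 6011 genes. Of the 40, 34 lay above 0, and the median log2 change was 0.40. Mad2l1, a spindle checkpoint protein, had 733, 825, 88.8 and 126 in Exp2, against 359, 318, 68.7 and 57.4 in Exp1 (log2 change 0.98, SE 0.22, limma adjusted p = 0.0396). Nusap1, a spindle microtubule protein, gave 489, 391, 34.3 and 41.6 in Exp2, against 169, 186, 13.5 and 16 in Exp1, and was at least 2.16-fold higher in Exp2 (log2 change 1.11, SE 0.26, limma adjusted p = 0.0467). The marker of cycling cells Mki67 had 1226, 808, 28.4 and 17.8 in Exp2, against 883, 787, 1.1 and 25.5 in Exp1, at or near the floor with TSA in both experiments, and did not pass (0.17). Top2a (0.45), Ccna2 (-0.02), Cdk1 (0.27) and Plk1 (0.31) did not pass either. No other member of these lists passed, while 12 mitosis and 14 replication genes were higher at an unadjusted p below 0.05 and 0 of each were lower. Over all 6011 genes that unadjusted count was 611 higher and 661 lower. Both medians were above 0 in each of the 4 pairs and in each of the alternatives that kept all arrays. The trend, robust eBayes and treatment-term alternatives leave each log2 change as it is, so they could not move these medians. Each of the 5 calls in both lists failed without the AzaC, the TSA or the AzaC/TSA pair, and those of Mcm2, Mad2l1 and Nusap1 also without the untreated pair, with adjusted p up to 0.207.

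Regulators of the G1 phase had 1 rise and 1 fall among 21 genes (1.56% of all 6011 genes rose and 2.84% fell). Myc, a transcription factor of growth, had 343, 328, 197 and 263 in Exp2, against 175, 193, 105 and 157 in Exp1, without overlap (log2 change 0.85, SE 0.19, limma adjusted p = 0.0372). Cdkn1a, the CDK inhibitor p21, gave 806, 1074, 1030.2 and 1508 in Exp2, against 1225, 1372, 1782 and 2237 in Exp1 (log2 change -0.58, SE 0.14, limma adjusted p = 0.0475). Every Exp2 culture was below its Exp1 partner for Cdkn1a, and its second probe set was also below 0 (-0.67, adjusted p = 0.0704). Ribosomal protein genes, which Myc is known to raise, had 1 of 19 higher and 0 lower, with a median log2 change of 0.30 and 16 above 0. The gene that passed, Rpl7, had 9566, 10184, 7475 and 9488 in Exp2, against 6329, 5949.9, 6002 and 6469 in Exp1 (log2 change 0.56, SE 0.13, limma adjusted p = 0.0433). The calls of Myc, Cdkn1a and Rpl7 were lost when any 1 pair was left out (adjusted p up to 0.193).

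Extracellular matrix and adhesion genes had 0 of 41 higher and 5 lower in Exp2, beside 1.56% and 2.84% of all 6011 genes. Their median log2 change was -0.21. Mmp14, a membrane-bound matrix metalloprotease, had signals of 104, 81.2, 150.2 and 78.5 in Exp2, against 435, 678, 508 and 581 in Exp1. All Exp2 arrays were below all Exp1 arrays, and Mmp14 was 5.44-fold lower in Exp2 (log2 change -2.44, SE 0.25, limma adjusted p = 0.00137). Cdh2, N-cadherin, gave 775, 425, 567 and 528 in Exp2, against 1247, 874, 930.0 and 1213 in Exp1 (log2 change -0.91, SE 0.15, limma adjusted p = 0.014). The basement membrane chains Col4a1 (-1.54) and Lamb2 (-1.35) also fell, as did Bcan. Tnc, tenascin C, a matrix protein of progenitors, did not pass (0.63). Mmp14 passed without each pair, while Col4a1 and Lamb2 were lost when any 1 pair was left out and Cdh2 without the AzaC, the TSA or the AzaC/TSA pair.

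Genes of fibroblasts and meninges had 3 of 20 lower and 0 higher in Exp2, beside 2.84% lower and 1.56% higher over all 6011 genes. Col5a2, a fibrillar collagen chain, had 238, 20.2, 92.3 and 32.2 in Exp2, against 651, 513, 419.9 and 522 in Exp1, and was 8.46-fold lower in Exp2 (log2 change -3.08, SE 0.46, limma adjusted p = 0.00722). Thy1, a surface protein of fibroblasts and of neurons, gave 13.9, 14.5, 6.6 and 129.5 in Exp2, against 527, 343, 197 and 210.4 in Exp1. Only the AzaC/TSA-treated Exp2 culture was above the floor for Thy1, which was at least 9.22-fold lower in Exp2 (log2 change -3.21, SE 0.55, limma adjusted p = 0.0141). Fbln2, fibulin 2, had 1038, 433, 1239.8 and 2301 in Exp2, against 1092, 1123, 4494 and 7655 in Exp1 (log2 change -1.26, SE 0.26, limma adjusted p = 0.0288). Over the 20 tested genes the median log2 change was -0.11, and 8 lay above 0. The summed signal of the 28 list genes on the array, tested or not, was 8198 to 11751 in Exp2 and 11193 to 17555 in Exp1. This linear sum is weighted to bright genes such as Fbln2 and does not show a fall across the list. The markers Col6a1 (0.60) and Twist1 (-1.20) did not pass. Of 6 genes of microglia and macrophages 1 fell, the fractalkine receptor Cx3cr1 (75.8, 28.3, 62.7 and 29.6 in Exp2, against 145, 260.3, 123 and 82.8 in Exp1; log2 change -1.65, adjusted p = 0.0475). Of the 6, 4 lay above 0, and the median log2 change was 0.14. Cd68, also in that list, was higher in Exp2 in all 4 pairs without passing (0.86, adjusted p = 0.108 in limma). The defining macrophage markers Aif1 and Itgam stayed below the floor on all 8 arrays. Of 5 endothelial genes 1 rose, endoglin, Eng (1.00), while Cdh5, the endothelial cadherin, was below the floor throughout. Of 14 blood and erythroid genes, 16 muscle genes, 5 of choroid plexus and ependyma, and 4 epithelial genes 0 passed in either direction. The part of these cell types in the differences above was not tested. Thy1 was not called without the AzaC or the TSA pair, Fbln2 not without the AzaC, the TSA or the AzaC/TSA pair, and Cx3cr1 and Eng not when any 1 pair was left out.

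Of 16 heat shock genes 2 rose and 1 fell, beside 1.56% and 2.84% of all 6011 genes. Hsp90aa1, the inducible HSP90, had 3124, 3564, 9074 and 6119.9 in Exp2, against 2556, 2137, 2429.9 and 2302 in Exp1 (log2 change 1.08, SE 0.23, limma adjusted p = 0.0335), with the TSA pair furthest apart. Hspe1, the mitochondrial co-chaperonin, had 2809.8, 2730.2, 1979 and 2538 in Exp2, against 1730.0, 1608, 1351 and 1511 in Exp1 (log2 change 0.69, SE 0.13, limma adjusted p = 0.0184). Bag3, a co-chaperone of HSP70, gave 82.4, 51.4, 88.5 and 72.4 in Exp2, against 210.2, 196, 290.3 and 334 in Exp1, without overlap, and was 3.48-fold lower in Exp2 (log2 change -1.80, SE 0.23, limma adjusted p = 0.00426). Of 28 metallothionein and oxidative stress genes 1 rose and 3 fell. Mt2, a metal-binding protein, had 1377, 2707, 15023 and 11122 in Exp2, against 3684, 4918, 22234 and 20068 in Exp1 (log2 change -0.93, SE 0.15, limma adjusted p = 0.0132), and its relative Mt1 fell too (-0.70). Gsta4, a glutathione transferase that clears lipid peroxidation products, had 14.4, 2.2, 16.4 and 7.5 in Exp2, against 59, 126, 186 and 384 in Exp1, and Gsr, glutathione reductase, rose (0.95). Of 23 immediate early genes Klf10 (0.73) and Myc rose and Ier3 (-1.62) fell. Cholesterol synthesis (20 genes) and the unfolded protein and amino acid response (25 genes) had 0 calls in either direction. Bag3 passed without each pair; Mt1, Gsr and Myc were lost when any 1 pair was left out, Gsta4 without the TSA pair, Mt2 without the AzaC or the AzaC/TSA pair, Ier3 without the untreated, the AzaC or the AzaC/TSA pair, and Hsp90aa1, Hspe1 and Klf10 without the AzaC, the TSA or the AzaC/TSA pair.

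Lists of sex, strain, imprinting and the transgene held 4 to 18 tested genes each. Over all 6011 genes 1.56% rose and 2.84% fell, and lists this short cannot be told from those shares by their counts. Of 4 sex-linked genes tested 0 passed. Eif2s3y, on the Y chromosome, had signals of 193, 199, 158 and 184 in Exp2, against 177, 160.1, 144 and 114 in Exp1. Its probe set is of the family kind and may share target RNA with X-linked Eif2s3x, which had 1227 to 1883. Xist, Kdm5d and Uty did not reach the filter. Of 9 genes known to vary between inbred strains 0 passed. Of 17 imprinted genes Nnat fell and 0 rose. Of 18 genes of apoptosis and the transgene 0 passed. Bcl2, the gene of the transgene, had 108, 126, 151 and 264 in Exp2, against 217, 99, 164 and 161 in Exp1 on its brightest probe set (log2 change -0.01), while a second probe set gave 69.7, 82.3, 71.5 and 194 in Exp2, against 175, 231, 185 and 241 in Exp1 and passed (log2 change -1.12, SE 0.26, limma adjusted p = 0.0431). Whether either probe set reads the transgene is not given in the sources used here.

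Whether the difference between experiments depended on TSA was tested as an interaction, for which limma called 6 of 7987 probe sets (0.0751%), with 799 at an unadjusted p below 0.05. A2m, the protease inhibitor alpha-2-macroglobulin, had signals of 468, 506, 183 and 158 in Exp2, against 465, 426, 1548 and 1633 in Exp1. It was dimmer with TSA in Exp2 and brighter with TSA in Exp1, so the log2 difference between experiments with TSA, less that without TSA, was -3.35 (SE 0.29, adjusted p = 0.0218). Myo10, an unconventional myosin of filopodia, had 839.9, 1165, 296 and 545 in Exp2, against 459, 800.4, 1117 and 2614 in Exp1 and the same pattern (-2.80, SE 0.27, adjusted p = 0.0218). Akap12, a scaffold of protein kinase A, gave 31.1, 20.9, 1599 and 761 in Exp2, against 146, 153, 539.6 and 364 in Exp1. It was lower in Exp2 without TSA and higher with it (3.87, SE 0.41, adjusted p = 0.0218). Mt3, the brain metallothionein, had 923, 910.0, 7982 and 8787 in Exp2, against 2509, 3704, 4587 and 5242 in Exp1 (2.51, SE 0.26, adjusted p = 0.0218). Ccnd1, cyclin D1, had 2821, 3102, 1375 and 2597 in Exp2, against 3917, 4530.3, 517 and 707 in Exp1 (2.15, SE 0.25, adjusted p = 0.0353), and a dimmer probe set of it gave 1.07 without passing. The remaining probe set, at 4.46, has no gene symbol. With 2 residual degrees of freedom the median SE of such a difference was 0.46, and 0 probe sets passed without the intensity trend (743 at an unadjusted p below 0.05) or without the filter (1058). The actin 5' to 3' ratio was also lower with TSA in Exp1 but not in Exp2, and its part in these calls was not tested.

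**Figure D4:**
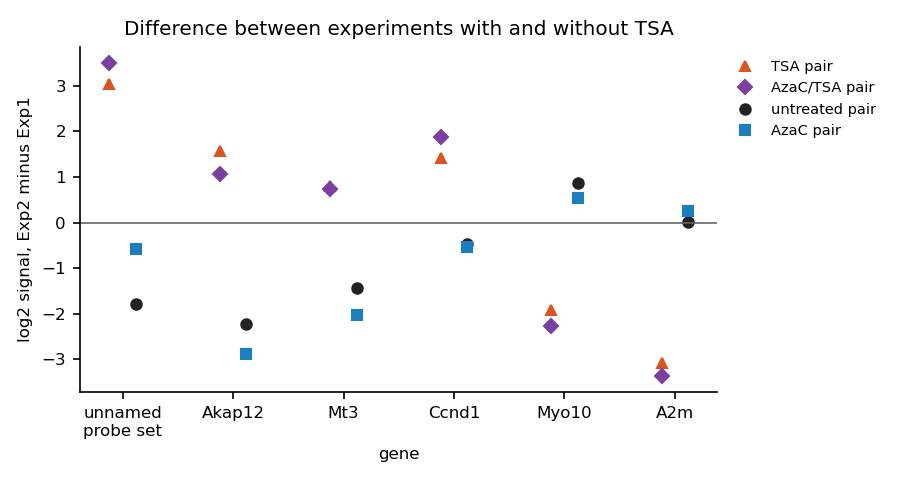
Log2 signal of Exp2 minus Exp1 (vertical axis) in each matched pair for the 6 probe sets past the test of experiment by TSA, with the pairs with TSA to the left and those without to the right of each position. For Akap12, Mt3 and Ccnd1 the pairs with TSA lie above 0 and those without below it, and for Myo10 the reverse.

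Sorting the genes by chromosome, a grouping chosen after the values were seen and given as a description, set chromosome 1 apart. Among genes with a mean log2 signal of at least 8, the 124 genes of chromosome 1 had a median log2 change of 0.37, with 95 of them above 0. The next medians were 0.16 on chromosome 6 and 0.13 on chromosome 15, and the lowest was -0.20 on chromosome 18. The median of chromosome 1 was 0.18 and 0.52 in the untreated and AzaC pairs, and 0.15 and 0.51 in the TSA and AzaC/TSA pairs. Over all 323 tested genes of chromosome 1, 17 were called higher and 3 lower, beside 94 and 171 over all 6011 genes. Those higher included Mcm3, Rpl7 and Hspe1 named above, and the nucleolar proteins Nop58 (1.18) and Nifk (1.49); those lower were Col5a2, Ramp1 and Efhd1. When the 124 genes were split in order along the chromosome into 5 parts of 24 or 25 genes, the medians were 0.52, 0.16, 0.31, 0.33 and 0.27, and all 25 genes of the first part lay above 0. Chromosome 1 kept the highest median under quantile normalization (0.36) and with an offset in place of the floor (0.35). Median centring (0.41) moves all genes alike and could not change the order. The other alternatives that kept all arrays left the median at 0.37. Those of filter, trend, robust eBayes and treatment terms leave each log2 change as it is, so they are no check on it. The source of this shift was not tested.

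**Figure D5:**
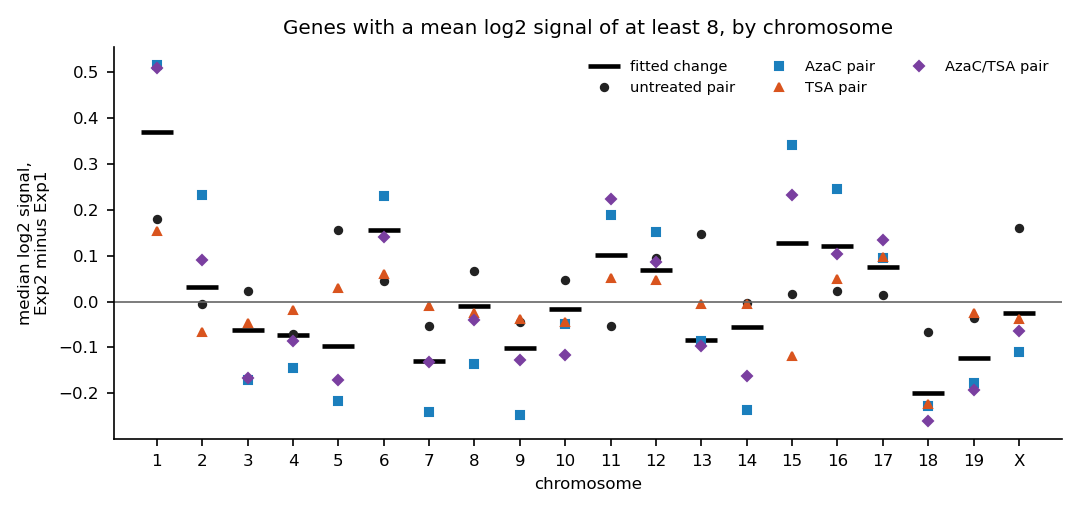
Median log2 signal of Exp2 minus Exp1 (vertical axis) by chromosome (horizontal axis) over genes with a mean log2 signal of at least 8, with a bar for the fitted change and a marker for each matched pair. Chromosome 1 has the highest median (0.37), and its 4 pairs lie between 0.15 and 0.52.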

How the data were processed

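The 8 arrays, 4 per experiment, carried short oligonucleotides under Affymetrix-type probe set names and measured RNA of neurosphere cells. The authors deposited linear intensity, with a value for each probe set on each array. All arrays had a 2%-trimmed mean of 200.1, as read from the values, so they had been scaled to it. The software behind them is not given in the sources used here.

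Of 12488 probe sets, the 66 controls were left out. Signals under 10% of the trimmed mean (20) were raised to that floor, and probe sets with at least 2 of 8 arrays at 25% (50) were kept, 7987 in all (64.3%). The array annotation gave a single symbol to 10833 probe sets, several to 396 and none to 1193, and 10817 were matched to RefSeq by gene identifier. Where a gene had several probe sets (1044 genes), the one with the highest mean was used, and others were checked for direction.

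The fit, made in R 4.3.3 with limma 3.58.1 on log2 signals, had experiment and treatment as terms and an intensity trend in eBayes (3 residual degrees of freedom, prior 6.71). P-values were two-sided and adjusted (Benjamini-Hochberg) over all 7987 probe sets. The median SE of a log2 change was 0.25 and its 95% half-width 0.56; the number of arrays limits the precision. A second fit added experiment by TSA (2 residual degrees of freedom). In simulated data with 200 of 7987 probe sets changed (10 simulations), the fit recovered 71.9% of log2 changes of 1 and 99.3% of those of 2, with 4.82% of calls false. Those changed were drawn from brighter probe sets only and moved alike in all 4 pairs. Recovery of dimmer or uneven changes was not measured. The 4.82% holds for the simulated data only. It is no estimate of the false share among the calls in the real data, where the true changes are not known.

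Gene lists (32, with 945 genes, 768 on the array) are described by counts and medians only. The compared arrays, the lists and the rule for named genes were chosen with earlier results of these data known. The rule took the 15 largest rises and falls that passed and went the same way in all pairs, up to 6 members per list in order of p, 5 per direction for experiment by TSA, and a set of markers. Further list members are named from the lists, and the gene families of the closing part were chosen after the values were seen.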

Additional observations from a re-analysis of the deposited data

Results flagged for a closer look

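In 72 named genes past the test, the 4 matched log2 differences (Exp2 minus Exp1) were examined for a pair that stood apart by Dixon's criterion, which by chance marks about 1 gene in 20; 5 were marked. Gas6, a TAM receptor ligand, had its largest difference in the TSA pair (-4.68), Nptx1, a neuronal pentraxin, in the AzaC pair (2.79), and Rhox5 in the AzaC/TSA pair (3.55). Smim20 had its smallest difference in the untreated pair (-1.77), and Uqcrc2 its largest in the AzaC/TSA pair (-1.16). The pairs that stood apart came from all 4 treatments.

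For 6 probe sets the difference between experiments with TSA differed from that without TSA by the interaction test in limma. The values, as the log2 difference with TSA less that without, were -3.35 for A2m, -2.80 for Myo10, 3.87 for Akap12, 2.51 for Mt3, 2.15 for Ccnd1 and 4.46 for a probe set with no gene symbol. Each kept its sign in all alternatives run for it, though only the normalization, floor and offset settings could change that sign.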

How the results depend on the processing

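Under the alternatives 0 of 72 named calls changed direction, but few of the alternatives could change one. The filter, trend, robust eBayes and treatment-term settings leave each log2 change as it is. Leaving out pairs cannot reverse a gene that went the same way in all 4 pairs. Only the normalization, floor and offset settings put direction to a test. The count of called probe sets (337, with 126 higher and 211 lower) stayed within 1.5 times under quantile normalization (349), median centring (308, of which 43.2% were higher, against 37.4%), a floor of 2.5% (330) or 20% (329), an offset in place of the floor (395), a filter at 50% (369), robust eBayes (369) and, except for 190 higher calls, AzaC and TSA as main effects (451). It fell to 74 (12 higher, 62 lower) without the intensity trend and to 54 (11 and 43) without the treatment term, that is with no replicate block for the matched cultures; all 54 were among the 337. Without the filter it was 0 by limma (1631 probe sets at an unadjusted p below 0.05). That setting took in 1012 probe sets under the floor on all arrays, which have no spread. Without those, an alternative chosen after seeing the data, the count was 54 (12 and 42), still far below 337. Leaving out 1 pair at a time gave 77 to 239 (17 to 76 higher, 56 to 163 lower). The pairs with TSA alone gave 42 (9 and 33), and those without TSA alone 0 by limma (1049 at an unadjusted p below 0.05). For experiment by TSA the 6 calls became 5 and 4 with the floors of 2.5% and 20%, and 0 by limma without the trend (743 at an unadjusted p below 0.05) or under either form of no filter (1058 and 952). Of the 72 named calls 23 passed without each pair in turn, 48 were lost without the trend, 50 without the filter but without those dim probe sets, and 54 without the treatment term; the largest adjusted p with all arrays was 0.785. Dim genes rest on the floor: 50 of 211 falls and 9 of 126 rises are lower bounds.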

Other observations

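Some groups of related genes among the calls belong to no list above. They were chosen after the values were seen, so their counts are descriptions, to be read beside the 1.56% of all 6011 genes that rose and the 2.84% that fell. Of 10 cathepsins tested, the proteases of lysosomes, 3 fell and 0 rose in Exp2: Ctsh, Ctsz (at least -2.69 on the log2 scale) and Ctsf (-1.29). Cst3, cystatin C, a secreted inhibitor of cathepsins, had signals of 4804, 2383, 6571 and 6692 in Exp2, against 13062, 8818, 12423 and 14243 in Exp1 and fell as well (log2 change -1.33, SE 0.17, limma adjusted p = 0.00396). Of 15 enzymes of fatty acid oxidation 4 fell and 0 rose, namely Acaa1b (-1.08), Decr1 (-1.07), Acaa1a (-0.91) and Hadhb (-0.79), and 1 of the 15 lay above 0. Of 4 AMPA receptor subunits Gria2 and Gria3 fell (Gria3 at least -2.20), and the median of the 4 was -1.75. Both contactins tested fell, Cntn3 by at least -1.89 beside Cntn1.

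Of 7 Nop and Nhp proteins, which build the particles that process ribosomal RNA, 3 rose and 0 fell: Nop58, Nop56 (0.94) and Nhp2. Nhp2 had signals of 2117, 3088, 916 and 1378 in Exp2, against 1109, 1010.0, 463 and 555 in Exp1 (log2 change 1.21, SE 0.16, limma adjusted p = 0.00426), and Nop58 had 476, 655, 403 and 399 in Exp2, against 215, 279, 188 and 169.7 in Exp1 (log2 change 1.18, SE 0.17, limma adjusted p = 0.00466). In both genes every matched pair was higher in Exp2. Of 5 galectins, which bind sugars at the cell surface, 2 rose, Lgals1 (0.87) and Lgals9 (at least 2.59); the untreated Lgals9 pair was below the floor in both experiments.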
